A study of Mus musculus with 6 samples.

Results

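The genes described here are 44 genes of hepatic fatty acid oxidation and ketone metabolism, with targets of PPARα, chosen by gene symbol from a table of 18260 genes. All 44 were present in the table. They were grouped by role into 3 regulators, 7 genes of fatty acid binding, activation and the carnitine shuttle, 13 genes of mitochondrial β-oxidation, 7 of peroxisomal oxidation, 6 of ω-oxidation, 4 acyl-CoA thioesterases, 1 gene of ketone metabolism and 3 further PPARα targets. Expression was measured by RNA sequencing in hepatocytes isolated from liver tumours of male mice. The mice had been given 1 intraperitoneal dose of the carcinogen diethylnitrosamine (DEN, 90 μg per g body weight) at 6 weeks of age, and from 3 weeks later a diet with 0.05% phenobarbital (PB), a tumour promoter, for 27 weeks. Hepatocytes of both genotypes were isolated 30 weeks after DEN. The 3 control libraries came from Ripply1 F/F mice, in which loxP sites flank exons 1 to 3 of Ripply1, a gene of the X chromosome. The 3 deletion libraries came from Ripply1 ΔHep mice. These carry the same floxed allele and Alb-Cre, a recombinase driven by the albumin promoter that acts in hepatocytes. Both groups had received DEN and PB, so no untreated liver enters the comparison. The labels do not say whether the replicates came from separate animals or pooled tumours, and the p-values therefore rest on sample-to-sample spread, some of which may be technical.

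Long-chain fatty acids are bound, activated to acyl-CoA and carried into mitochondria as carnitine esters, where β-oxidation shortens them to acetyl-CoA, the substrate of ketone body synthesis. Peroxisomes shorten very long chains, and Cyp4a enzymes of the endoplasmic reticulum start ω-oxidation at the other end of the chain. PPARα is the nuclear receptor that raises much of this programme in fasted liver or when fatty acids accumulate. It binds with RXR to a direct repeat of the hexamer AGGTCA with a 1-base spacer.

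Libraries held between 27772849 and 35894395 counts, and 1 CPM (the read count scaled to a common library size, after TMM scaling) stood for 26.7 to 37.9 counts. From 1.07% to 1.49% of each library belonged to the 44 genes. Triplets of values below follow the order of replicates 1, 2 and 3. Ripply1 itself had 13, 8 and 12 counts in F/F and 1, 1 and 2 in ΔHep. Exon 4 lies outside the floxed part, so these counts can include reads of a deleted allele. These are 0.389 ± 0.124 and 0.0377 ± 0.0131 CPM (SD, n = 3 each; exact two-sided permutation p = 0.1, the smallest that 3 against 3 libraries allow). Hepatocyte markers summed to 117981 to 125107 CPM in F/F and 105318 to 133574 CPM in ΔHep libraries, so the labelled cell type had its defining markers in every library. Markers of other cells were present too. Stellate cell and fibroblast markers summed to 272 to 395 CPM in F/F and 552 to 785 CPM in ΔHep. Of these, 10 of 10 were higher in ΔHep, 6 of them at an adjusted p below 0.05 in edgeR's quasi-likelihood test. Of all tested genes, 1.51% were called higher. Endothelial markers summed to 290 to 481 and 529 to 604 CPM, with 10 of 10 higher and 1 called. Cholangiocyte markers summed to 50.1 to 107 and 87.5 to 164 CPM, with 7 of 8 tested higher and 4 called. Macrophage markers summed to 279 to 715 CPM in F/F and 657 to 877 CPM in ΔHep, and T and NK cell markers to 5.21 to 7.42 and 10.2 to 25.1 CPM. In such bulk samples, fewer cells of a type and less RNA per cell cannot be told apart.

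No member passed the threshold between the genotypes. Of 44 members, all of which passed the filter on low counts, 0 had an adjusted p below 0.05 in edgeR's quasi-likelihood test over all 14552 tested genes, of which 1.68% passed (1.51% higher and 0.165% lower in ΔHep). At an unadjusted p below 0.05 there were 7 members, 15.9%, against 21.1% of all tested genes (14.1% higher and 6.97% lower). These were Ppargc1a, Ehhadh, Cyp4a31 and Pdk4 with higher and Acadvl, Hadh and Cyp4a12a with lower values in ΔHep. The groups did not overlap in 9 members, 20.5%, against 27.1% of all tested genes (15.3% higher and 11.8% lower), 3 of them with higher and 6 with lower values in ΔHep. Both shares are near the background and are no result about the members. The median log2 fold change of the members was -0.14, that of all tested genes -0.01. DESeq2 called 3 members, against 9.00% of all genes, and limma-voom 0.

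**Figure D1:**
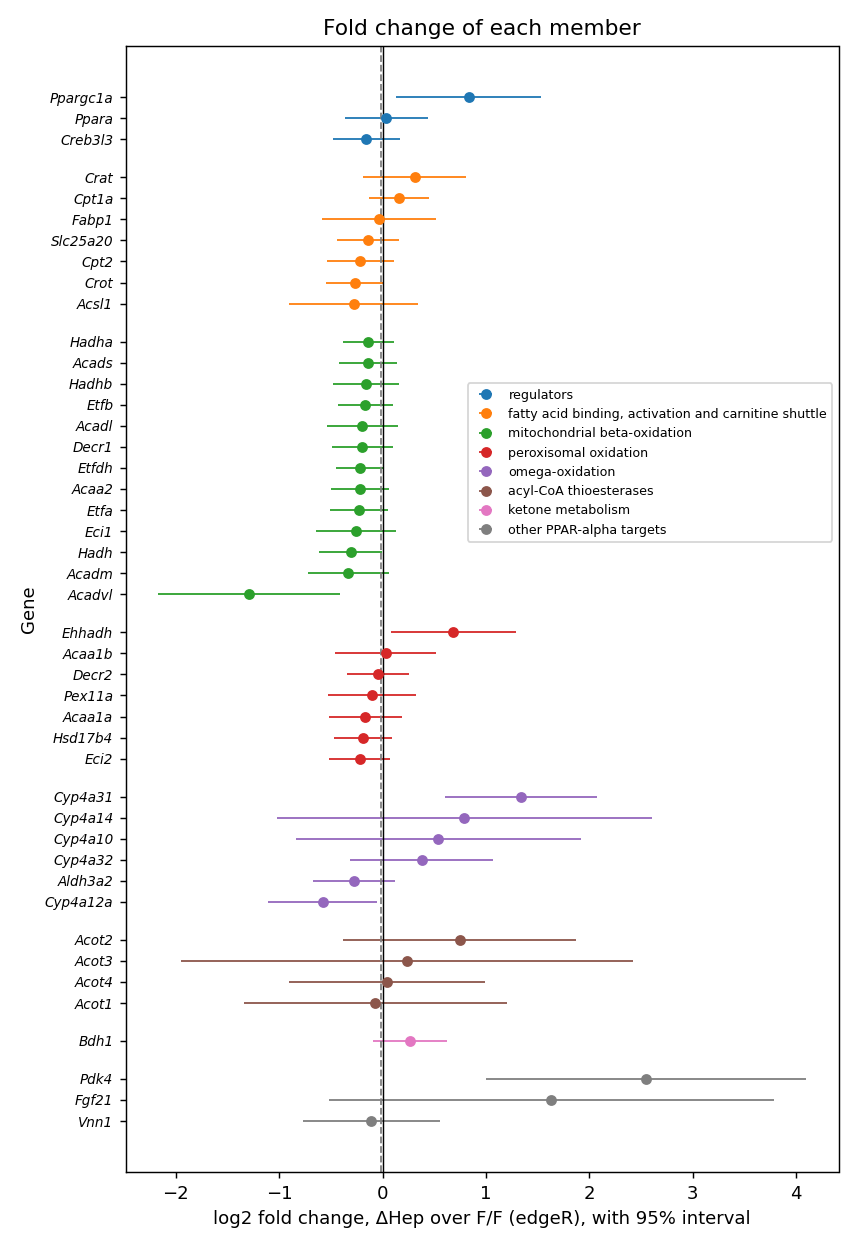
Log2 fold change of each of the 44 members, ΔHep over F/F, with its 95% interval from edgeR, grouped by role; the dashed line is the median of all tested genes, -0.01. The 13 mitochondrial genes lie to the left of 0 with short intervals apart from Acadvl, while the thioesterases, Cyp4a10, Cyp4a14, Pdk4 and Fgf21 have the long ones.

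Some role groups differed from others in their spread between libraries of the same genotype. The SD of log2 CPM within a group, pooled over both genotypes, had a median of 0.23 over all tested genes. The group median was 0.16 for mitochondrial β-oxidation, 0.19 for fatty acid binding, activation and the carnitine shuttle, and 0.22 for peroxisomal oxidation. It was 0.22 for the 1 gene of ketone metabolism, 0.25 for the regulators, 0.50 for ω-oxidation and 0.89 for the thioesterases. For the 3 further PPARα targets it was 1.10, the value of Pdk4, with Vnn1 at 0.50 and Fgf21 at 1.74. Acot3, Fgf21 and Cyp4a14, at 1.80, 1.74 and 1.58, stood at percentiles 99.8, 99.8 and 99.6 of all tested genes. At the other end were Etfdh and Hadha, both at 0.07, at percentiles 3.88 and 3.92. Whether these group differences exceed what lists of such size give was not tested.

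**Figure D2:**
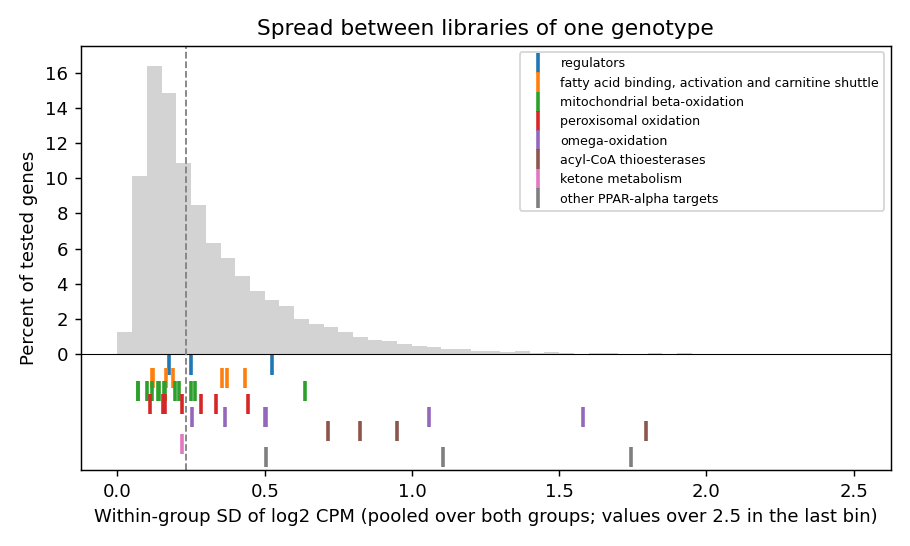
Histogram of the within-group SD of log2 CPM over all 14552 tested genes, as percent of genes, with the 44 members as ticks below it, 1 row per role; the dashed line is the median, 0.23. Ticks of the mitochondrial genes crowd around and below that line, and those of the thioesterases lie between 0.71 and 1.80.

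The regulators were led by Ppara, the receptor itself. Its level was 483, 489 and 522 CPM in F/F and 659.9, 419 and 455 CPM in ΔHep. The F/F values lay inside the range of the ΔHep values, with ΔHep replicate 1 highest and ΔHep replicate 2 lowest. The log2 fold change was 0.04 (SE 0.18, adjusted p = 0.927), with a 95% interval from -0.37 to 0.44. Ppargc1a encodes PGC-1α, a co-activator of PPARα and of mitochondrial biogenesis, and stood at 16.05, 8.14 and 18.6 CPM in F/F and 23.6, 19.5 and 33.2 CPM in ΔHep. All ΔHep values lay above all F/F values, though the highest F/F and the lowest ΔHep library were close. It did not pass (log2 fold change 0.83, SE 0.31, adjusted p = 0.178). Creb3l3, a liver transcription factor of the endoplasmic reticulum that acts with PPARα on Fgf21, was at 353, 350.0 and 332 CPM in F/F and 367, 299.7 and 263 CPM in ΔHep (log2 fold change -0.16, SE 0.14, adjusted p = 0.569). Per kilobase of annotated exon, mean levels in F/F were 129.8 CPM for Ppara, 114 CPM for Creb3l3 and 2.17 CPM for Ppargc1a.

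**Figure D3:**
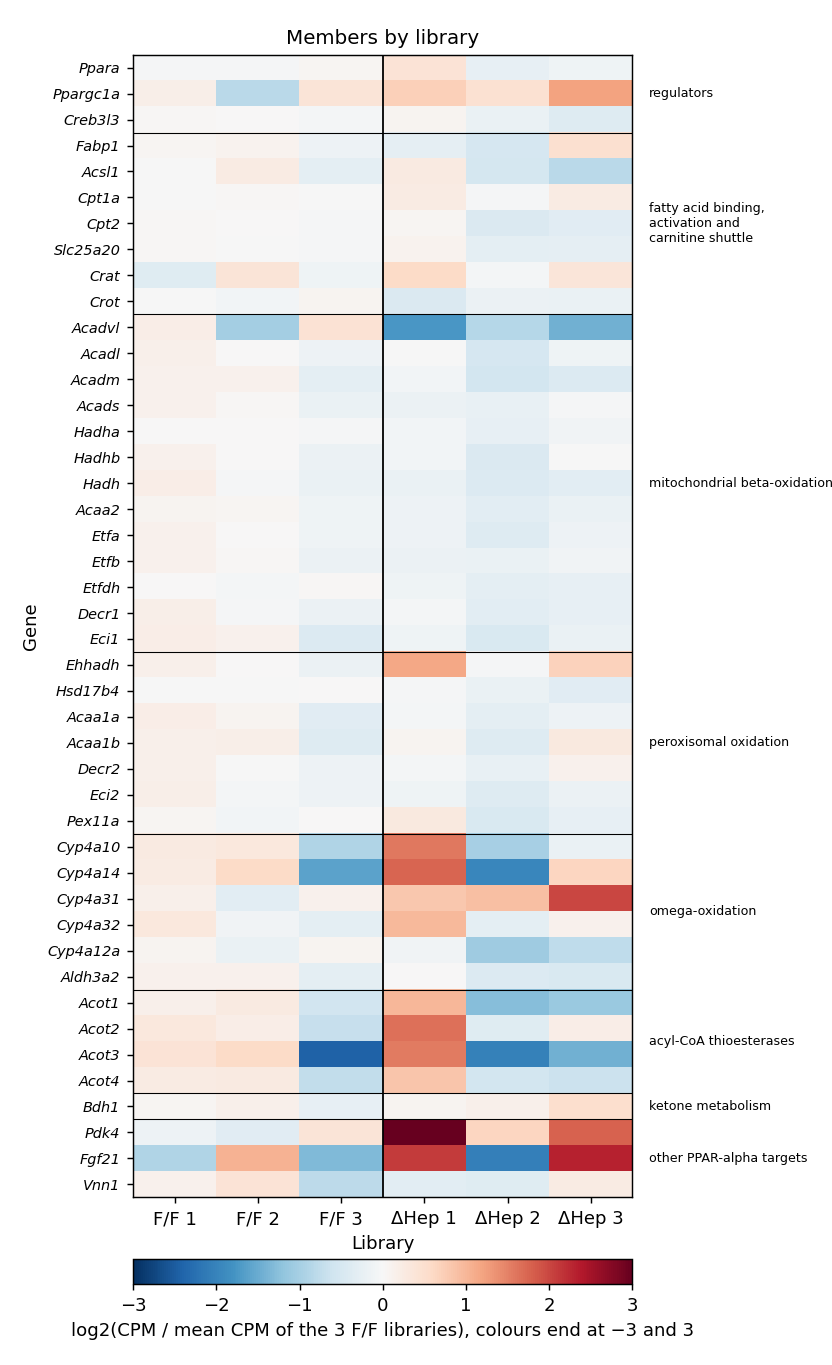
Heat map of the 44 members (rows, by role) in the 6 libraries (columns); colour is log2 of CPM over the mean CPM of the 3 F/F libraries, ending at -3 and 3. Thioesterases and Cyp4a10, Cyp4a14 and Cyp4a32 are red in ΔHep replicate 1 and mostly blue in F/F replicate 3 and ΔHep replicate 2, while the mitochondrial rows stay pale apart from Acadvl.

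Fatty acid binding and activation were carried by abundant mRNAs whose groups overlapped. Fabp1, the liver fatty acid binding protein, had the highest level of the 44 genes per kilobase of exon, 3579 CPM (F/F) and 3499 CPM (ΔHep). Its values were 2052, 2117 and 1769 CPM in F/F and 1647, 1405 and 2753 CPM in ΔHep, so that the highest and the lowest library were both ΔHep (log2 fold change -0.03, SE 0.24, adjusted p = 0.957). Acsl1, the main long-chain acyl-CoA synthetase of liver, was at 1476, 1777 and 1212 CPM in F/F and 1785, 1039 and 856 CPM in ΔHep (log2 fold change -0.28, SE 0.27, adjusted p = 0.6). Here ΔHep replicate 1 matched the top of the F/F range and the other ΔHep libraries lay below it.

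Fabp1 was also the 1 member whose start-site window held the spaced direct repeat. RefSeq promoter windows (build GRCm38.p6, 250 bases before to 50 after the start site) were matched for 35 of the 44 members. There were no entries for Crat, Hsd17b4, Acaa2, Decr1, Cyp4a10, Cyp4a14, Cyp4a31, Cyp4a12a and Vnn1. They were searched on both strands for AGGNCA followed by 1 base of any kind and AGGNCA again, where N is any base, and for the half-site AGGTCA, which may lie inside the repeat. The repeat was found in 1 of 35 members, 2.86%, against 0.451% of the 27025 genes with a window. The half-site was found in 7 members, 20%, against 18.1%. A match describes letters only, and a window this short leaves out more distant sites. The Fabp1 window, chr6:71199629-71199928 on the plus strand, is shown because it holds the repeat on the opposite strand, its first base at -67 from the start site; that of Pdk4, chr6:5496229-5496528 on the minus strand, is shown for comparison as the member with the largest fold change, and holds neither. Capitals mark the repeat and half-sites.
Fabp1: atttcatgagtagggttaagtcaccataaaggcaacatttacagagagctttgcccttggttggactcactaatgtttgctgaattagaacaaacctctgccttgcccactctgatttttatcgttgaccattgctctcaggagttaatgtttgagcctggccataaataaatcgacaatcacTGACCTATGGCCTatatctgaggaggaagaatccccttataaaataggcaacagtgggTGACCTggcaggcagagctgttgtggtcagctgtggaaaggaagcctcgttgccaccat
Pdk4: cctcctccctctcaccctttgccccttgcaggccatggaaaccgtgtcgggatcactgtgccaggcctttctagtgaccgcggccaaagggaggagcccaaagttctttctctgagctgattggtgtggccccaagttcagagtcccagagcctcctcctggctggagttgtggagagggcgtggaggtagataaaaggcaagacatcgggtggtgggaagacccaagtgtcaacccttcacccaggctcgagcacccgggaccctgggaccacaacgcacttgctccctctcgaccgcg

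In the carnitine shuttle, 0 of the 5 enzymes and carriers passed. Cpt1a, the rate-controlling carnitine palmitoyltransferase of the outer mitochondrial membrane, was at 639.8, 659 and 643 CPM in F/F and 768, 629 and 773 CPM in ΔHep. The 95% interval of its log2 fold change, 0.16 (SE 0.13, adjusted p = 0.503), ran from -0.13 to 0.45. Cpt2, its partner on the inner membrane, and Slc25a20, the carnitine-acylcarnitine carrier, had log2 fold changes of -0.22 and -0.14, with ΔHep replicate 1 the highest library in both. Crat, the carnitine acetyltransferase, was at 34.3, 57.8 and 39.9 CPM in F/F and 65.2, 42.3 and 56.2 CPM in ΔHep (log2 fold change 0.31, SE 0.22). Crot, the octanoyltransferase that exports chains shortened in peroxisomes, was at 414, 395 and 444 CPM in F/F and 309, 372 and 362 CPM in ΔHep. Its groups did not overlap, with ΔHep lower (log2 fold change -0.27, SE 0.12, adjusted p = 0.255), and unlike Cpt2 and Slc25a20 it was lowest in ΔHep replicate 1.

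The mitochondrial β-oxidation genes had small differences in 1 direction. All 13 had negative log2 fold changes, against 51.2% of all tested genes, with a median of -0.22, and 0 of 13 passed. All 13 stayed negative under each of the 12 alternative fits. The groups did not overlap in 4 of them, 30.8%, each with lower values in ΔHep, against 11.8% of all tested genes. They were Hadha, Acaa2, Etfa and Etfdh. The 13 genes followed the same libraries, so they are not independent of each other: 11 of 13 were highest in F/F replicate 1 and 12 of 13 lowest in ΔHep replicate 2. As a median over the genes, relative to the F/F mean on the log2 scale, the F/F replicates lay at 0.14, 0.01 and -0.16 and the ΔHep replicates at -0.13, -0.39 and -0.18. F/F replicate 3 lay below ΔHep replicate 1 and close to ΔHep replicate 3. Stellate cell markers summed to 272, 297 and 395 CPM in F/F and 552, 785 and 768 CPM in ΔHep. This is the reverse of the mitochondrial order, apart from F/F replicate 3 and ΔHep replicate 1, whose mitochondrial medians lay close. Cholangiocyte markers were also highest in ΔHep replicate 2, at 164 CPM. Macrophage markers summed to 279, 327 and 715 CPM in F/F and 877, 657 and 737 CPM in ΔHep. Endothelial markers summed to 290, 352 and 481 CPM in F/F and 577, 529 and 604 CPM in ΔHep. Both rose over F/F replicates 1, 2 and 3, where the mitochondrial median fell. Within ΔHep both were least in replicate 2, where the mitochondrial genes were lowest. Hepatocyte markers were lowest in ΔHep replicate 2, at 105318 CPM. The part of other cells in the result was not tested.

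Among the acyl-CoA dehydrogenases, which take the first step for chains of different length, Acadm (medium chains) was at 369, 367 and 273 CPM in F/F and 320.3, 229 and 252 CPM in ΔHep. Its log2 fold change was -0.33 (SE 0.17, adjusted p = 0.304), and F/F replicate 3 lay inside the ΔHep range. Acadl (long chains) and Acads (short chains) had log2 fold changes of -0.20 and -0.14. Hadha and Hadhb encode the subunits of the trifunctional protein, which carries out the remaining steps for long chains. Hadha was at 395, 393 and 380.4 CPM in F/F and 370.2, 328 and 363 CPM in ΔHep, a difference without overlap but small (log2 fold change -0.14, 95% interval from -0.39 to 0.11). Hadhb, next to it and transcribed the other way, had -0.16. Hadh, the dehydrogenase of short hydroxyacyl-CoA, stood at 346, 295 and 259.9 CPM in F/F and 261, 226 and 240.5 CPM in ΔHep (log2 fold change -0.31, SE 0.13, unadjusted p = 0.0492, adjusted p = 0.235). F/F replicate 3 and ΔHep replicate 1 were almost equal. Acaa2, the mitochondrial thiolase, was at 978, 959 and 846 CPM in F/F and 838, 749.5 and 802 CPM in ΔHep (log2 fold change -0.22, SE 0.12, adjusted p = 0.341). The electron transfer flavoprotein subunits Etfa and Etfb and the dehydrogenase Etfdh, which hand electrons on to ubiquinone, had -0.23, -0.17 and -0.22. Decr1 and Eci1, which deal with double bonds of unsaturated chains, had -0.20 and -0.26. Over the 12 genes other than Acadvl, the highest library exceeded the lowest by 1.2 to 1.61 times.

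Acadvl, the very-long-chain dehydrogenase, stood apart. Its values were 10.05, 4.30 and 11.9 CPM in F/F and 2.61, 4.87 and 3.25 CPM in ΔHep, with F/F replicate 2 inside the ΔHep range. A value of -1.29 on the log2 scale (SE 0.38, adjusted p = 0.115) did not pass in edgeR and did in DESeq2 (-1.30, adjusted p = 0.0114). Per kilobase of exon its mean level in F/F was 3.26 CPM, against 90.0 CPM for Acadl. The gene (chr11:70010183-70015411, minus strand) shares 42.9% of its annotated exon bases with Dvl2 on the opposite strand. The F/F libraries had 0.388 ± 0.186 CPM of Dvl2 and the ΔHep libraries 0.267 ± 0.0774 CPM (SD, n = 3 each). No source used here gives the strand setting of the counting, so reads of the shared part cannot be assigned and the values of both genes are uncertain.

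**Figure D4:**
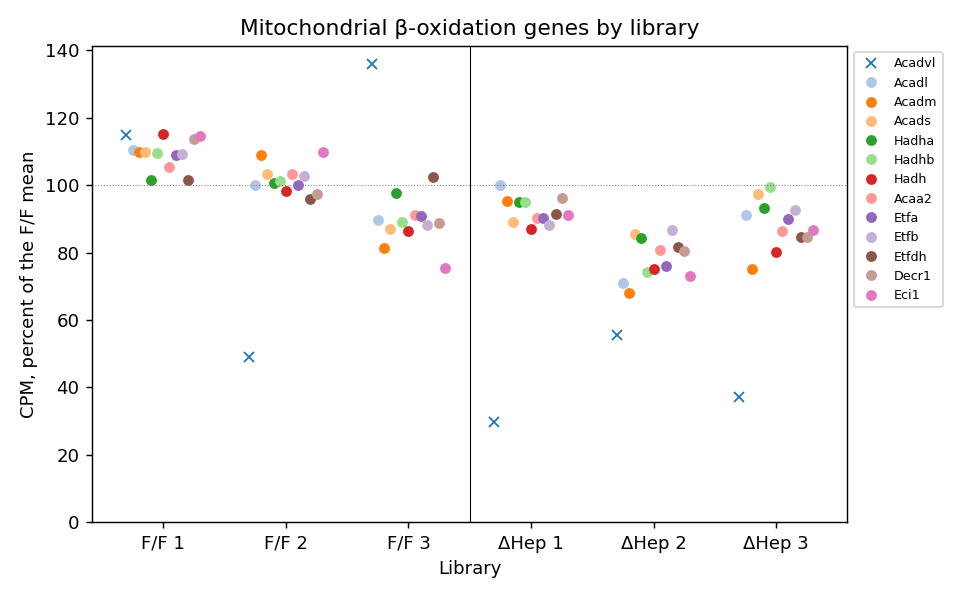
Level of the 13 mitochondrial β-oxidation genes in each library as percent of the F/F mean of that gene; each point is 1 gene and the crosses are Acadvl. Of the 13 genes, 11 are highest in F/F replicate 1 and 12 lowest in ΔHep replicate 2, and F/F replicate 3 overlaps the ΔHep libraries. Acadvl is highest in F/F replicate 3 and lowest in ΔHep replicate 1.

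Among peroxisomal genes, Ehhadh stood against most others. It encodes the L-bifunctional enzyme, a classical PPARα target, and was at 312, 282 and 247 CPM in F/F and 626, 273 and 454 CPM in ΔHep. ΔHep replicates 1 and 3 lay above the F/F range and ΔHep replicate 2 inside it. The log2 fold change was 0.69 (SE 0.26, unadjusted p = 0.0305, adjusted p = 0.193). Hsd17b4, the D-bifunctional enzyme of the constitutive pathway, stood at 539, 532 and 547 CPM in F/F and 527, 469 and 425 CPM in ΔHep, lower without overlap (log2 fold change -0.19, SE 0.12, adjusted p = 0.411). The difference between Ehhadh and Hsd17b4 itself was not tested.

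The peroxisomal thiolases Acaa1a and Acaa1b had log2 fold changes of -0.16 (SE 0.16) and 0.03 (SE 0.21). Acaa1b, the more abundant, was at 1010.0, 1016 and 689.8 CPM in F/F and 961, 697 and 1117 CPM in ΔHep, so that F/F replicate 3 and ΔHep replicate 2 were low together. Their coding sequences are 96.5% identical and share a run of 327 bases, and reads may be split between them; summed, they gave -0.01 (SE 0.20, adjusted p = 0.982). Decr2 and Eci2, which handle unsaturated chains in peroxisomes, had -0.04 and -0.22. Pex11a, which promotes peroxisome division, was at 163, 147 and 159 CPM in F/F and 192, 113 and 132 CPM in ΔHep (log2 fold change -0.10, SE 0.19), with ΔHep replicate 1 highest and ΔHep replicate 2 lowest.

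Among the Cyp4a genes of ω-oxidation, Cyp4a10, Cyp4a14 and Cyp4a32 had within-group SDs of log2 CPM (1.06, 1.58 and 0.51) above their log2 fold changes, while Cyp4a31 and Cyp4a12a did not. Cyp4a10, an inducible fatty acid hydroxylase, was at 307, 317 and 135 CPM in F/F and 758, 127 and 219 CPM in ΔHep. Cyp4a14, induced together with it by PPARα agonists, was at 182, 228 and 50.7 CPM in F/F and 517, 39.4 and 242 CPM in ΔHep. In both genes ΔHep replicate 1 was the highest library, F/F replicate 3 and ΔHep replicate 2 were the lowest, and the groups overlapped over the whole F/F range. Highest over lowest came to 5.99 times for Cyp4a10 and 13.1 times for Cyp4a14. Log2 fold changes were 0.54 (SE 0.60, adjusted p = 0.653) and 0.79 (SE 0.80, adjusted p = 0.61). Without ΔHep replicate 1 they were -0.55 and -0.13, so their sign rested on that library.

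Cyp4a31 showed another order of libraries. It was at 8.40, 6.02 and 8.17 CPM in F/F and 13.2, 14.0 and 30.0 CPM in ΔHep, with all ΔHep values above all F/F values and ΔHep replicate 3 highest. The log2 fold change was 1.34 (SE 0.32), the lowest adjusted p of the 44 members, 0.0687, and it passed with DESeq2 (adjusted p = 0.00108) and with library totals alone (0.0454). Cyp4a32 stood at 31.4, 23.6 and 20.6 CPM in F/F and 49.8, 20.7 and 27.6 CPM in ΔHep (log2 fold change 0.38, SE 0.30, adjusted p = 0.515; -0.06 without ΔHep replicate 1).

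The 3 genes lie side by side on the plus strand of chromosome 4, Cyp4a10 at chr4:115518264-115533649, Cyp4a31 at chr4:115563649-115579015 and Cyp4a32 at chr4:115600969-115621602. Their coding sequences of 1530 bases are 96% to 97.2% identical. Of the 50-base stretches of Cyp4a31, 19.5% occur unchanged in Cyp4a10 and 25.7% in Cyp4a32. Cyp4a10 was far more abundant, with 174 CPM per kilobase of exon in ΔHep against 7.60 CPM for Cyp4a31 and 21.3 CPM for Cyp4a32. Whether reads of Cyp4a10 were counted for the lesser genes was not tested. Coding bases 601 to 720 of each, from GENCODE M21 transcripts (GRCm38), show how thinly the differences are spread. Capitals mark bases that differ from Cyp4a10, 5 in Cyp4a31 and 3 in Cyp4a32.
Cyp4a10: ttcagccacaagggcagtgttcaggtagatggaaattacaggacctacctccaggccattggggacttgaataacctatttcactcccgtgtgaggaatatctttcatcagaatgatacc
Cyp4a31: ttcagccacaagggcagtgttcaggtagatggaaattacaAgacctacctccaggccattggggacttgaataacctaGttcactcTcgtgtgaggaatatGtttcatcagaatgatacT
Cyp4a32: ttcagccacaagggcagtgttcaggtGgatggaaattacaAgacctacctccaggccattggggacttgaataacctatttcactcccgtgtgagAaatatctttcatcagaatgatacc
Summed over the 3 genes the log2 fold change was 0.55 (SE 0.54, adjusted p = 0.602). Cyp4a10 held most of these counts, so the sum had to lie near its value of 0.54 and cannot decide on Cyp4a31.

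Cyp4a12a, the family member typical of males, was at 308, 252 and 308 CPM in F/F and 269.8, 139 and 172 CPM in ΔHep. ΔHep replicate 1 lay inside the F/F range and the other ΔHep libraries below it. The log2 fold change was -0.58 (SE 0.23, unadjusted p = 0.0343, adjusted p = 0.201), and without ΔHep replicate 1 it passed, at -0.90 (adjusted p = 0.0481). Its coding sequence is 98.5% identical to that of Cyp4a12b, which was not among the 44 genes and stood at -1.10 on the log2 scale (SE 0.44, adjusted p = 0.201). Aldh3a2, the fatty aldehyde dehydrogenase that follows the hydroxylases, was at 443, 443 and 329 CPM in F/F and 407, 302 and 295 CPM in ΔHep (log2 fold change -0.27, SE 0.17).

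The acyl-CoA thioesterases, which free fatty acids from CoA, shared with Cyp4a10 and Cyp4a14 the peak in ΔHep replicate 1, but not the order of the other libraries. Acot1, the cytosolic enzyme, was at 75.1, 81.4 and 45.4 CPM in F/F and 134, 27.5 and 31.2 CPM in ΔHep. Acot3, a peroxisomal enzyme, was at 29.1, 32.9 and 4.12 CPM in F/F and 64.6, 5.42 and 8.05 CPM in ΔHep, a range of 15.7 times over the 6 libraries. In all 4 genes ΔHep replicate 1 was the highest library, against 14.2% of all tested genes. F/F replicate 3 was the lowest in 3 of them and ΔHep replicate 2 in the other. Acot4, also peroxisomal, was at 63.7, 64.2 and 32.0 CPM in F/F and 95.1, 36.2 and 34.0 CPM in ΔHep, and Acot2, the mitochondrial enzyme, at 7.01, 6.48 and 3.48 CPM and 17.7, 4.41 and 6.47 CPM. Log2 fold changes ran from -0.07 for Acot1 to 0.75 for Acot2 (SE 0.41 to 0.96), and the interval of Acot3, from -1.95 to 2.42, leaves even its direction undetermined. Without ΔHep replicate 1 the median of the 4 genes went from 0.14 to -0.90.

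The coding sequences of Acot1 and Acot2 are 95.5% identical and share a run of 273 bases. The stretch from coding base 601 to 720 of Acot1 and from 724 to 843 of Acot2, on the plus strand of chromosome 12, is the same in both, so a read from it names no gene.
Acot1 and Acot2: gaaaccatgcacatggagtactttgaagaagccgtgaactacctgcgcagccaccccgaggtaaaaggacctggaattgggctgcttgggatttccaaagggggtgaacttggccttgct
Acot3 shares 14.1% of the 50-base stretches of Acot1 and Acot4 7.02%. Summed, the 4 genes stood at 0.061 on the log2 scale (SE 0.54, adjusted p = 0.965).

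**Figure D5:**
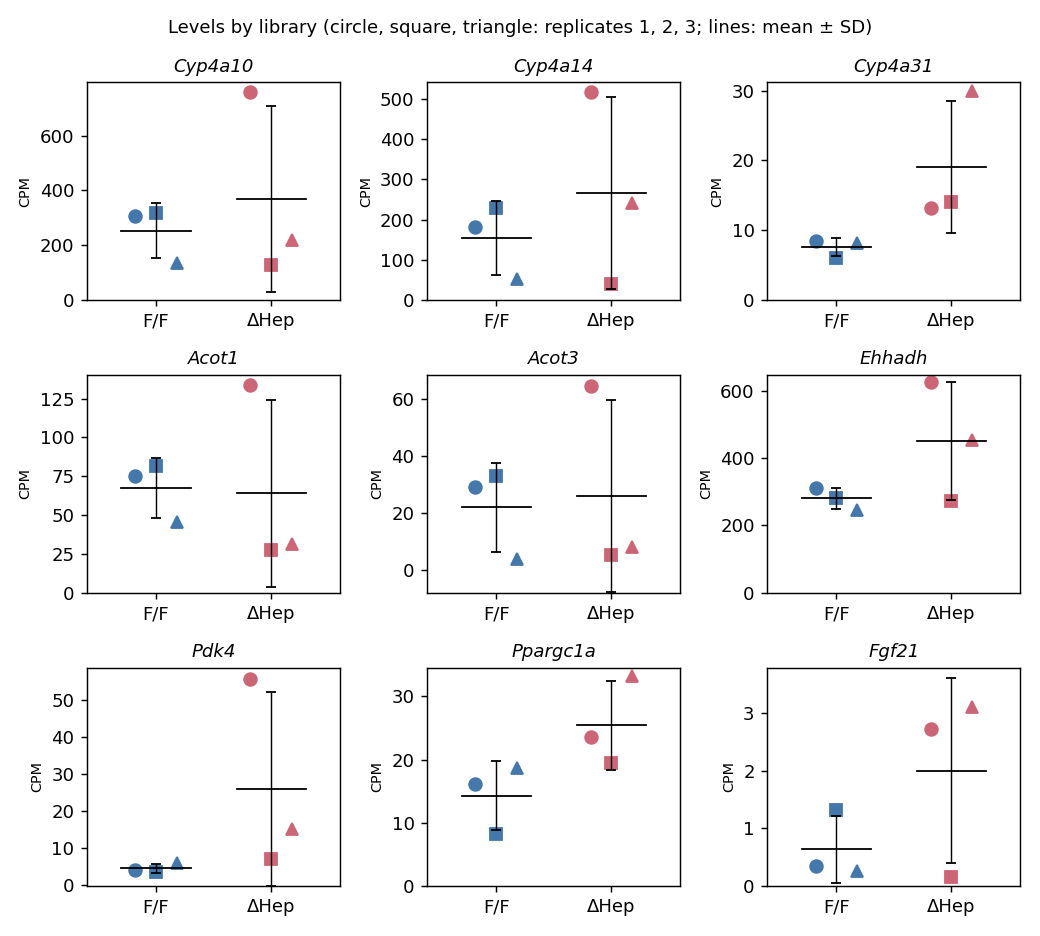
CPM of 9 members in each library (circle, square and triangle for replicates 1, 2 and 3, blue F/F and red ΔHep) with the mean and SD of each group. In Cyp4a10, Cyp4a14, Acot1, Acot3, Ehhadh and Pdk4 the ΔHep circle is the highest point, and in Cyp4a31 and Ppargc1a all ΔHep points lie above all F/F points.

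Pdk4 had the largest fold change of the 44 members. It encodes the pyruvate dehydrogenase kinase that spares glucose when fat is burned. Its values were 3.97, 3.49 and 5.84 CPM in F/F and 55.8, 6.95 and 15.1 CPM in ΔHep. The groups did not overlap, but ΔHep replicate 2 lay just above F/F replicate 3, and ΔHep replicate 1 was far above all others. The log2 fold change was 2.55 (SE 0.68, 95% interval from 1.00 to 4.10), which did not pass in edgeR (adjusted p = 0.0898) and did in DESeq2 (adjusted p = 0.0416). Leaving out 1 library at a time gave 1.32 to 3.00, the lowest without ΔHep replicate 1. Fgf21, the liver hormone induced by PPARα in fasting, was scarce, at 0.337, 1.31 and 0.251 CPM in F/F and 2.73, 0.153 and 3.12 CPM in ΔHep. It was high in ΔHep replicates 1 and 3 and lowest of all in ΔHep replicate 2 (log2 fold change 1.63, SE 0.94, adjusted p = 0.356). Vnn1, the pantetheinase that recycles a building block of CoA, was at 50.7, 62.1 and 26.9 CPM in F/F and 37.6, 36.5 and 55.6 CPM in ΔHep (log2 fold change -0.11, SE 0.29, adjusted p = 0.868). It did not share the peak of Pdk4 in ΔHep replicate 1.

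Bdh1, the mitochondrial dehydrogenase that makes β-hydroxybutyrate, was at 199.9, 214 and 162 CPM in F/F and 203, 214 and 274 CPM in ΔHep (log2 fold change 0.26, SE 0.16, adjusted p = 0.369). ΔHep replicate 3 lay above the F/F range, and ΔHep replicate 2 was level with the highest F/F library.

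Over all members, ΔHep replicate 1 was the highest library in 16 of 44 genes and the lowest in 2, and ΔHep replicate 2 the highest in 0 and the lowest in 25. Of all tested genes, ΔHep replicate 1 was highest in 14.2% and ΔHep replicate 2 lowest in 14.4%. The members differed among themselves in which library led: the thioesterases and Cyp4a10, Cyp4a14 and Cyp4a32 peaked in ΔHep replicate 1, the mitochondrial genes in F/F replicates 1 or 3, and Cyp4a31, Ppargc1a, Fgf21 and Bdh1 in ΔHep replicate 3. Macrophage markers summed to 877 CPM in ΔHep replicate 1, the highest library, and cholangiocyte markers to 164 CPM in ΔHep replicate 2; their part in these orders was not tested.

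Of 137 other genes listed for the pathway, 133 were in the table and 126 were tested, and 0 passed in edgeR and limma-voom. DESeq2 called 8 higher and 6 lower, where it called 9.00% of all tested genes (1070 higher and 239 lower). These calls are therefore no result about the pathway. At an unadjusted p below 0.05 there were 10 higher and 21 lower, 24.6% against 21.1% of all tested genes (14.1% higher and 6.97% lower). Lower values outnumbered higher ones here and not over all genes, which was not tested. The lists differed in positive and negative log2 fold changes. These numbered 6 and 23 for peroxisomal genes, 4 and 11 for mitochondrial, 2 and 7 for ω-oxidation and 3 and 4 for ketone genes. For receptors and co-regulators they numbered 5 and 8, for fatty acid uptake and activation 11 and 8, and for PPARα targets 23 and 12. The genes are not independent: 36 were highest in F/F replicate 1 and 36 lowest in ΔHep replicate 2. Over the 126 genes the median log2 fold change was -0.06. The lowest p belonged to Oxct1, which uses ketone bodies outside hepatocytes, with 5.83 ± 0.696 CPM (F/F) and 10.04 ± 1.29 CPM (ΔHep) (SD, n = 3 each; log2 fold change 0.78, SE 0.17, adjusted p = 0.0604). Pecr, a peroxisomal trans-enoyl-CoA reductase, followed with 161 ± 8.56 and 113 ± 13.1 CPM (-0.52, SE 0.12, adjusted p = 0.0649). Next came Cyp39a1, an oxysterol hydroxylase, with 0.98 (adjusted p = 0.0684), Apoa4, a lipoprotein component, with 1.20 (adjusted p = 0.0738), and Acot9, a mitochondrial thioesterase, with 0.94 (adjusted p = 0.0789). Among the most abundant, Scp2, the peroxisomal thiolase and sterol carrier, stood at 3971 ± 207 and 3052 ± 216 CPM (-0.38, SE 0.14, adjusted p = 0.167), and Cat, the peroxisomal catalase, at 3095 ± 205 and 2443 ± 304 CPM (-0.34, SE 0.15, adjusted p = 0.227). Scd1, a desaturase of lipogenesis, had 0.50 (SE 0.44) and Tat, an amino acid transaminase, 0.22 (SE 0.22).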

How the data were processed

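The values are whole-number counts by gene symbol, deposited by the authors in 1 table whose 6 columns were matched to sample titles. HISAT2 2.0.4 and mm10 are named in the submitters' processing notes. Not given in the sources used here: counting program, annotation, strand setting, gene filter; so reads of near-identical or overlapping genes may be misassigned. Counts were tested with edgeR 4.0.16 in R 4.3.3: filterByExpr (minimum count 10, minimum total 15), TMM (trimmed mean of M) scaling to CPM, the two-sided quasi-likelihood F test, and Benjamini-Hochberg adjustment over 14552 genes at a threshold of 0.05. SE is the size of the log2 fold change over the square root of F, and intervals are 95%. Within-group SD used log2 CPM with a prior count of 2. Library depth ran from 27772849 to 35894395 counts, so counting error is small for most members; reads were not tied to single molecules. Gene models and transcripts came from GENCODE M21 (GRCm38, the assembly of mm10) and promoters from RefSeq. Alternatives were RLE scaling, library totals, DESeq2 1.42.0, limma-voom 3.58.1, no filter, a replicate block, leaving out each library and summing paralogs. Full values are given for regulators, members at an unadjusted p below 0.05, the extremes of each role group, small groups and paralogs. Exceptions are Acads, Eci2 and Acaa1a, for which only fold changes are given. Full values of Fabp1, Acaa2 and Pex11a and the fold change of Cyp4a12b were added after their values were seen. Members and lists were chosen with earlier results of these data known. The scripts were tested on simulated data. 1 of the most abundant other pathway genes is not reported here.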

Additional observations from a re-analysis of the deposited data

How the results depend on the processing

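The count of genes called over the whole table, 244, was 644 with library totals only, 1309 with DESeq2 and 88 with limma-voom, and 1 to 1246 when 1 library was left out: 2, 1 and 1246 without F/F replicates 1, 2 and 3 and 215, 4 and 5 without ΔHep replicates 1, 2 and 3. The count of members, 0, was 1 with library totals only (Cyp4a31, at 1.45), 3 with DESeq2 (Cyp4a31 1.34, Pdk4 2.54, Acadvl -1.30) and 0 to 1 when 1 library was left out (Cyp4a12a, at -0.90, without ΔHep replicate 1). The count of other pathway genes, 0, was 4 with library totals only, 14 with DESeq2, 2 with the replicate block and 0 to 9 when 1 library was left out, the 9 without F/F replicate 3. Without ΔHep replicate 1 the median of ω-oxidation went from 0.46 to -0.29 and that of the thioesterases from 0.14 to -0.90; leaving out the libraries in turn gave -0.29 to 0.78 for ω-oxidation and -0.90 to 0.50 for the thioesterases. The other role medians moved by less than the spread between replicates under every alternative. The cause of these shifts was not tested.

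Of the 31 members recomputed singly, 10 changed sign under some alternative, none of them past the threshold. Over all 44 members the number with negative values, 28, ran from 24 without ΔHep replicate 2 to 34 without ΔHep replicate 1, and was 26 with library totals only, so some of the others changed sign too. Leaving out 1 library at a time gave -0.19 to 0.16 for Ppara, -0.55 to 0.95 for Cyp4a10, -0.13 to 1.30 for Cyp4a14, -0.061 to 0.62 for Cyp4a32, -1.20 to 0.29 for Acot1, -0.058 to 1.09 for Acot2, -1.71 to 0.71 for Acot3, -0.61 to 0.30 for Acot4, -0.14 to 0.20 for Acaa1b and -0.39 to 0.15 for Vnn1. For the Cyp4a and Acot genes and Ppara the lowest value was that without ΔHep replicate 1. With limma-voom Acot3 was at -0.20 and Acot4 at -0.056. Summed with their paralogs, Acaa1b was at -0.011 and Acot1 at 0.061.

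The titles number the replicates 1 to 3 in both genotypes. Deviations from the group mean correlated at 0.113, -0.0689 and -0.00898 over genes for replicates 1, 2 and 3, so the numbers were not taken as pairs. With the replicate block 236 genes passed, and 0 members, Acot3 was at -0.052 and Acot4 at -0.050, and the other pathway genes called were Cyp39a1 and Cyp4a12b. At 3 libraries a group, the wide intervals of the variable members are set by the spread between libraries, and only genes below 1 CPM, such as Fgf21 in some libraries, are limited by depth.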
